A study of Mus musculus with 672 samples.

Results

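Irf8, Irf4, Bach2 and Bach1 encode 4 transcription factors that take part in the choice between B, myeloid and dendritic fates. They were taken by name from a table of 46078 mouse genes. Their levels are given in 561 single bone marrow progenitors, after 111 of the sorted cells had been removed by filters. The tested cells came from 2 Mbd3-null mice (Mbd3 deleted on both alleles, mice 18217 and 18219). The controls came from 2 mice with floxed Mbd3 on both alleles (mice 18218 and 18220). All 4 mice were 7 weeks old, of the strain C57BL6/129Ola, and the labels used here name no Cre line. Mbd3 is a subunit of NuRD, a nucleosome remodelling and histone deacetylase complex. Cells of 3 gates were sorted from femurs and tibiae, and every gate was lineage-negative, Sca-1+, c-Kit+, Flt3-high and B220-. Lymphoid-primed multipotent progenitors (LMPPs) lacked surface IL-7 receptor, all-lymphoid progenitors (ALPs) had IL-7 receptor without Ly6D, and B-biased lymphoid progenitors (BLPs) had both proteins.

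IRF8 and IRF4 bind DNA weakly on their own and are recruited by partners such as the ETS factors PU.1 and SpiB or the AP-1 factor BATF. IRF8 is known for the development of plasmacytoid and conventional type 1 dendritic cells and monocytes and for restraint of neutrophil output, and IRF4 and IRF8 together are needed for early B cell maturation. BACH1 and BACH2 are repressors that pair with small MAF proteins, are released from DNA by heme, and compete with NRF2 at genes of heme breakdown and oxidative defence. In progenitors, BACH2 is known to hold back myeloid genes and to favour B cell development.

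The 12 summed libraries (1 per mouse and gate) held 53741264 to 137497554 gene counts from 34 to 79 cells each. Null cells were sequenced less deeply: the median cell held 1004760 to 1285444 counts across the 6 null libraries and 1586214.5 to 2340592 counts across the 6 control libraries. Of the 111 cells removed, 86 were ALPs of mice 18219 and 18220. Mbd3 stood at 0.189 to 2.88 CPM (the read count scaled to the size of its library) in 5 of the 6 null libraries and at 24.7 CPM in the LMPPs of null mouse 18219, against 48.1 to 191 CPM in control libraries. In that LMPP library 1 cell held 98.3% of the Mbd3 reads. The genes of the proteins that separate the gates went with the labels: Il7r was at 3.72 to 26.7 CPM in LMPPs and at 546 to 909 CPM in the other gates, and Ly6d was at 1501 to 3749 CPM in BLPs and at 2.05 to 133 CPM elsewhere. RNA of proteins that all gates share was less even. Kit was at 364 to 549 CPM in LMPPs and 61.9 to 137 CPM in the other gates. Ly6a, which encodes Sca-1, was at 259 to 501 CPM in LMPPs and 62.2 to 403 CPM in the other gates. Markers of mature macrophages and stroma summed to 18.0 CPM or less per library (5 of 10 listed genes measurable), and erythroid and megakaryocyte markers to 56.9 CPM or less (8 of 10 measurable). All of the following p-values rest on 2 mice per genotype and gate, and so on the spread between these 4 mice alone. The edgeR p-values take that spread from 1 fit to all 6 groups and, in part, from all genes. Permutation p-values for steps between gates are over 4 mice. In summed libraries, fewer expressing cells and less RNA per cell cannot be told apart, so the share of cells with a read is given beside each level.

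Irf8 was lowest in LMPPs in every mouse, and in ALPs it was lower in null than in control mice. Irf8 lies on the plus strand of chromosome 8 (GRCm38, 120736358 to 120756694, 7055 exonic bases). Its promoter is shown because most of the results that follow concern Irf8. The 250 bases before the RefSeq start (GRCm38.p6, chr8:120736108-120736357, plus strand) are printed with matches to TTCNNNGAA, a palindrome found in promoters that respond to cytokines, in capitals.
Irf8: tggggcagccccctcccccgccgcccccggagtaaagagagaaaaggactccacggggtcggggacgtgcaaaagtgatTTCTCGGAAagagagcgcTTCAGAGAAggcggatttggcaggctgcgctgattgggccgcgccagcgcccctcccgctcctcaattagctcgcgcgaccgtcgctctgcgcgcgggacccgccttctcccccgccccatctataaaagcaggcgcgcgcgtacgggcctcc
The window held 2 such matches, which do not overlap, starting 171 and 153 bases before the start. Of 32851 RefSeq windows of the same length, 7.02% held at least 1 match on either strand. No match to the IRF type (GAAA and GAAA with 2 bases between them, in 2.98% of windows), the ETS-IRF composite (GGAA and GAAA with 2 bases between them, in 2.3%) or the MAF-recognition type (TGANTCAGC, in 1.02%) was found in this Irf8 window on either strand. RefSeq gives Irf8 a further start, whose window (chr8:120738389-120738638, plus strand) held no match to any of the 4 motifs. A match is a description of letters and not evidence of binding.

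In LMPPs, Irf8 stood at 30.3 and 169 CPM in null mice 18217 and 18219, against 152 and 117 CPM in control mice 18218 and 18220. In ALPs, it stood at 165 and 321 CPM in null mice and at 776 and 1315 CPM in control mice. BLPs had 1293 and 1051 CPM in null mice and 1020 and 1599 CPM in control mice. Null and control mice thus overlapped in LMPPs and BLPs, and both null mice lay below both control mice in ALPs. In 1 library the level hung on a single cell: 72.8% of the Irf8 reads in the LMPPs of null mouse 18219 came from 1 cell, and without it that library was at 48.5 CPM. With the cell richest in Irf8 left out of each library, LMPPs were at 24.3 and 48.5 CPM in null mice and at 135 and 97.2 CPM in control mice, which no longer overlap.

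**Figure D1:**
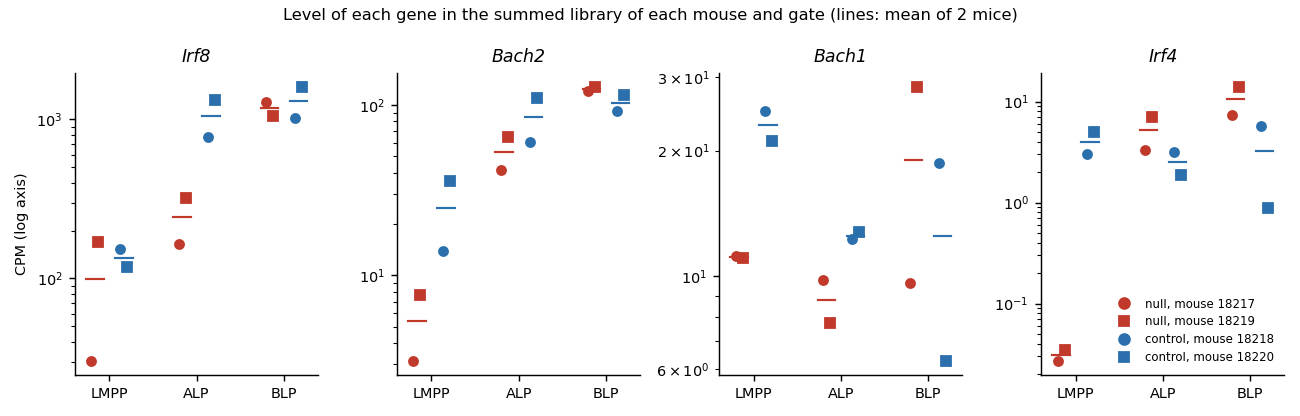
CPM on log axes of Irf8, Bach2, Bach1 and Irf4 in the summed library of each mouse in LMPPs, ALPs and BLPs, with null mice in red left of control mice in blue and lines at the mean of 2 mice. In ALPs the null mice had Irf8 at 165 and 321 CPM and the control mice at 776 and 1315 CPM, and Irf4 in null LMPPs rests on 2 reads per library.

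The Irf8 difference in ALPs was -2.10 ± 0.70 on the log2 scale (null over control, ± SE, n = 2 mice each) and did not pass the threshold of 0.05 in edgeR's quasi-likelihood test over 19903 genes (unadjusted p = 0.0157, adjusted p = 1). The mean level was 243 ± 111 CPM in null ALPs and 1046 ± 381 CPM in control ALPs (SD). In LMPPs the log2 difference was -0.44 ± 0.68 (adjusted p = 0.967) and in BLPs -0.16 ± 0.67 (adjusted p = 0.991). None of the 4 members passed in LMPPs, ALPs or BLPs, where 0%, 0.00502% and 0.01% of all genes tested did. An unadjusted p under 0.05 was found for 1345 genes in LMPPs, 896 in ALPs and 1757 in BLPs, of 19903. If no gene differed, a share of 0.05 would be expected there. In LMPPs, DESeq2 called 489 genes and limma-voom 0. All 15 alternatives kept the ALP difference of Irf8 below 0, between -2.66 and -1.69, and none called it. Its lowest adjusted p was 0.0798, in DESeq2.

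Per cell, the difference in ALPs was seen in the median cell and in the cells rich in Irf8. The median ALP held 45.8 and 196 CPM of Irf8 in null mice, against 492 and 1152 CPM in control mice. Above 1000 CPM, a line chosen after the values were seen, were 3 of 79 and 5 of 42 null ALPs (3.8% and 11.9%) and 22 of 74 and 21 of 40 control ALPs (29.7% and 52.5%). Exact 95% intervals reached 10.7% and 25.6% in null mice and began at 19.7% and 36.1% in control mice, and these cover counting error alone. In BLPs the same line was passed by 36.1% and 34.3% of null cells and by 29.4% and 40.0% of control cells. LMPPs rarely passed it, with 0 of 45 and 1 of 47 null cells and 2 of 47 and 1 of 47 control cells.

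**Figure D2:**
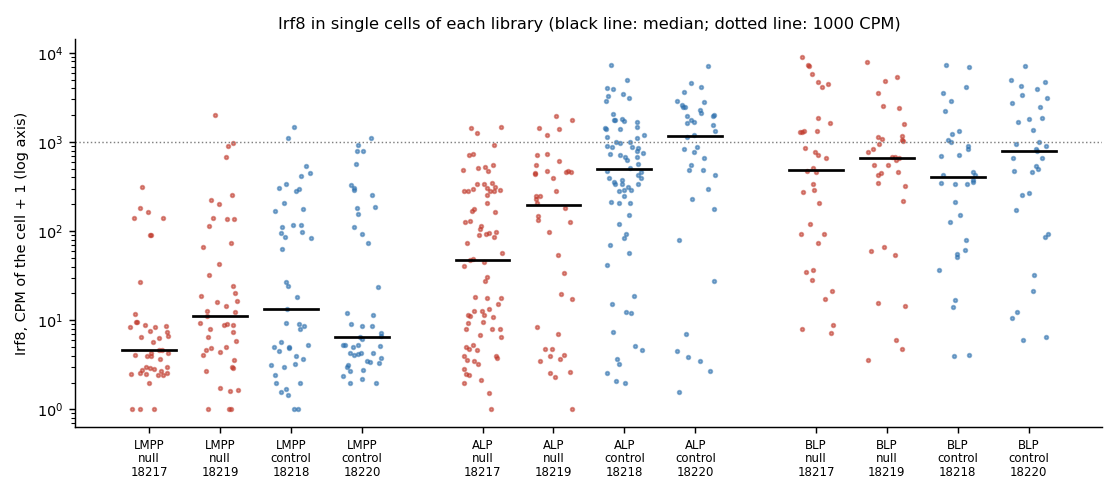
Irf8 CPM plus 1 on a log axis in each of 561 cells, by library, with null mice in red left of control mice in blue in every gate, a black line at the median and a dotted line at 1000 CPM. Above the dotted line lie 3.8% and 11.9% of null ALPs and 29.7% and 52.5% of control ALPs, and the 4 BLP libraries have 29.4% to 40.0% of cells there.

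Shares were also taken after each cell was thinned at random to 50000 gene counts, because null cells were sequenced less deeply. An Irf8 read was then seen in 69.6% and 73.8% of null ALPs and in 89.2% and 92.5% of control ALPs. The mean difference was -19.1 percentage points, against -10.0 points at 100000 counts per cell and -1.82 points without thinning. An exact two-sided permutation test over mice gave p = 0.333, the smallest p that 2 mice against 2 can give. In LMPPs an Irf8 read was seen in 31.1% and 46.8% of null cells and in 59.6% and 38.3% of control cells. BLPs had one in 88.9% and 94.3% of null cells and in 94.1% and 91.4% of control cells, and in both of these gates the mice overlapped. In LMPPs the overlap depended on the setting: at least 10 reads without thinning were seen in 22.2% and 44.7% of null cells and in 53.2% and 59.6% of control cells, and at least 1 read in 93.3% and 93.6% of null cells and 95.7% and 100% of control cells.

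Irf8 was also compared between successive gates of the same genotype. ALPs over LMPPs, Irf8 differed by 1.29 ± 0.68 in null mice (adjusted p = 0.661) and by 2.95 ± 0.73 in control mice (adjusted p = 0.247, edgeR log2 fold change ± SE). The null value rests in part on the single LMPP of mouse 18219 named above. BLPs over ALPs, it differed by 2.27 ± 0.71 in null mice (adjusted p = 0.745) and by 0.32 ± 0.67 in control mice (adjusted p = 0.954). The genotypes were not shown to differ in either step: the null-minus-control interaction was -1.67 ± 0.96 at the first step (adjusted p = 0.962) and 1.94 ± 0.96 at the second (adjusted p = 0.801). The share of cells with a read was higher in ALPs than in LMPPs in 4 of 4 mice, by 37.3 ± 12.3 points (SD), with an exact permutation p of 0.125, the smallest that 4 pairs can give.

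**Figure D3:**
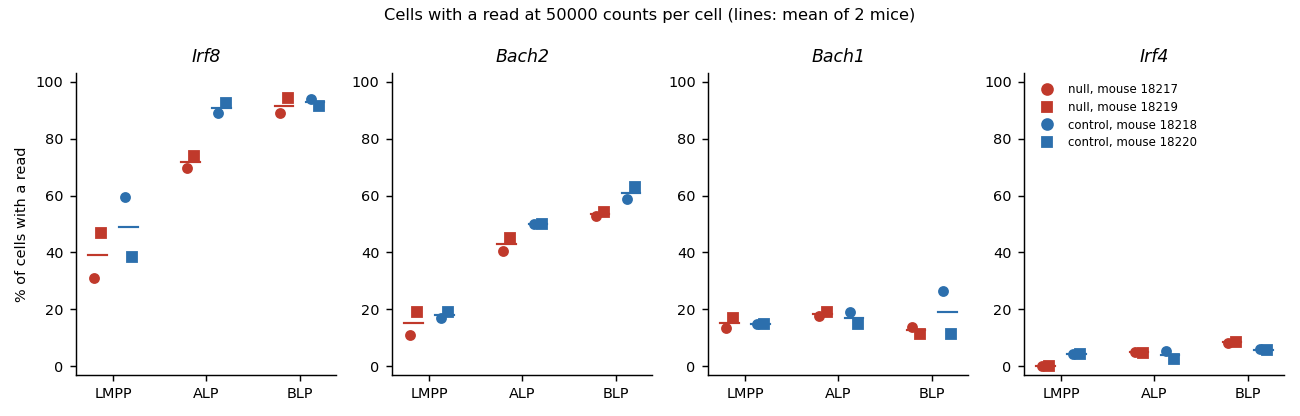
Percentage of cells with at least 1 read of each gene after thinning to 50000 counts, per mouse and gate, with null mice in red left of control mice in blue and lines at the mean of 2 mice. Irf8 in ALPs was at 69.6% and 73.8% in null mice and at 89.2% and 92.5% in control mice, and Bach2 was higher in BLPs than in LMPPs in every mouse.

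Within the BLP gate, Irf8 correlated over cells with some dendritic genes and inversely with some B lineage genes in all 4 mice. Whether the cells form separate groups was not tested. Spearman's rank correlations over the cells of each library are descriptions without a test. They are over 34 to 36 cells, share each library's depth, and were computed on thinned cells. The genes paired here were picked after such correlations had been seen. Siglech, a surface lectin of plasmacytoid dendritic cells, correlated with Irf8 by 0.69 and 0.46 in null mice and by 0.53 and 0.58 in control mice. Cox6a2, a respiratory chain subunit also high in plasmacytoid dendritic cells, gave 0.72 and 0.49 in null mice and 0.51 and 0.44 in control mice. Ly6d, which encodes the protein used to sort this gate, gave 0.71 and 0.67 in null mice and 0.35 and 0.47 in control mice. Every one of these values is positive, in mice of both genotypes, while Cd74 was mixed in sign (-0.20 to 0.27).

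Several genes of the B lineage ran the other way, but not all of the early B list: Ly6d belongs to it, and Il7r, also on it, was between 0.01 and 0.24. Rag1, which cuts DNA in antigen receptor recombination, correlated with Irf8 in BLPs by -0.47 and -0.61 in null mice and by -0.26 and -0.47 in control mice. Ebf1, the factor that specifies B cells, gave -0.33 and -0.44 in null mice and -0.38 and -0.34 in control mice. Mpo, the neutrophil granule peroxidase, was also lower in Irf8-rich BLPs, at -0.49 and -0.37 in null mice and -0.29 and -0.44 in control mice. The myeloid list, to which Mpo belongs, was not uniform: Ly86, also on it, was positive in all 4 mice (0.19 to 0.64). The number of genes detected from the dendritic list of 25 genes correlated with Irf8 by 0.48 to 0.57 over the 4 mice, and that from the early B list of 25 genes by -0.47 to -0.24. The number of all genes detected correlated with Irf8 by -0.30 to -0.06, and the part of this in the correlations was not tested.

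When each BLP library was divided at its own median of Irf8, the same relations can be given as levels and shares. This cut is a line through a continuous range, defines no cell type, and restates the correlations of genes chosen by them. Siglech averaged 1136 and 930 CPM in the upper cells of the null mice, against 32.7 and 73.0 CPM in their lower cells. In control mice it averaged 822 and 1131 CPM in the upper cells and 35.3 and 67.4 CPM in the lower cells. A Siglech read was seen in 66.7% to 77.8% of upper cells and in 16.7% to 41.2% of lower cells, with no overlap between mice. Shares of Cox6a2 were higher in the upper cells in 3 of 4 mice, at 77.8% of upper and 82.4% of lower cells in null mouse 18219. Ebf1 was read in 50.0% to 61.1% of upper cells and in 77.8% to 100% of lower cells. Rag1 was read in 33.3% to 77.8% of upper cells and in 77.8% to 94.1% of lower cells, and Pax5, the B cell commitment factor, in 16.7% to 22.2% of upper cells and in 29.4% to 47.1% of lower cells. Mean levels of the B lineage genes were closer: Ebf1 averaged 317 and 262 CPM in upper cells of null mice against 408 and 310 CPM in their lower cells, and 202 and 217 CPM against 479 and 451 CPM in control mice. Pax5 in null mouse 18219 averaged 98.6 CPM in upper cells and 47.2 CPM in lower cells, the reverse of its shares. Upper cells had lower median counts per cell than lower cells in 4 of 4 mice.

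Among 7720 genes with a read in at least 20% of BLPs, ranked by the mean correlation with Irf8 over the 4 mice, Lsp1 stood at the top (0.59), followed by Siglech (0.57), Ly6d (0.55) and Cox6a2 (0.54). Lsp1 encodes an actin-binding protein of leukocytes. The next were Tmem229b (0.53), Gsn (0.51), Mpeg1 (0.51), Grn (0.51), Runx2 (0.50) and Fyb (0.49), of which Runx2 is a transcription factor needed by plasmacytoid dendritic cells and Mpeg1 encodes a pore-forming protein of phagocytes. At the other end stood Myl10 (-0.54), a myosin light chain gene, and among the lowest 8 were also Slc25a1 (-0.47), Myc (-0.47), H2-K1 (-0.47), Impdh1 (-0.47) and Rag1 (-0.45). No threshold separates these ranks, and all genes of a cell share its depth.

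**Figure D4:**
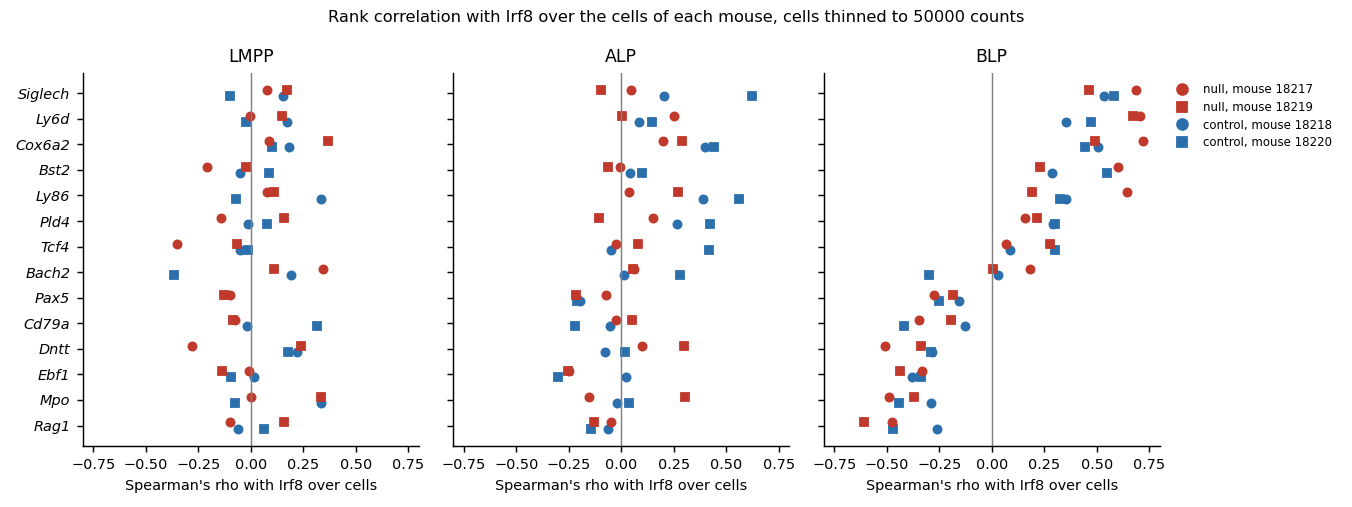
Spearman's rho between Irf8 and 14 genes over the cells of each mouse in LMPPs, ALPs and BLPs, with cells thinned to 50000 counts, null mice in red above control mice in blue within each row. In BLPs the genes from Siglech (0.46 to 0.69) to Tcf4 (0.07 to 0.30) lie right of 0 in all 4 mice. Among them are Ly6d, of the early B list, and Ly86, of the myeloid list, beside dendritic genes. Mpo and the B lineage genes from Pax5 (-0.27 to -0.16) to Rag1 (-0.61 to -0.26) lie left of 0 in all 4 mice. Cd74, a dendritic list gene of mixed sign in BLPs (-0.20 to 0.27), is not drawn.

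In ALPs and LMPPs the correlations were smaller or mixed in sign. In ALPs the correlation of Irf8 with Siglech was 0.05 and -0.10 in null mice and 0.20 and 0.62 in control mice, so the null mice lay around 0. Cox6a2 was positive in all 4 mice, at 0.20 and 0.29 in null mice and 0.40 and 0.44 in control mice. Ebf1 gave -0.25 and -0.26 in null ALPs and 0.02 and -0.30 in control ALPs. In LMPPs no dendritic gene shown but Cox6a2 (0.09 to 0.37) was positive in all 4 mice, and Siglech ranged from -0.10 to 0.17. Whether the genotypes differ in these correlations was not tested.

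Dendritic and B lineage genes were mixed in direction between null and control ALPs, and Ebf1 alone passed the test. Siglech was at 21.8 and 45.3 CPM in null ALPs, against 124 and 202 CPM in control ALPs (log2 difference -2.28 ± 0.91, edgeR adjusted p = 1). Pld4, a lysosomal exonuclease of plasmacytoid dendritic cells, was at 24.8 and 10.9 CPM in null ALPs and 76.1 and 143 CPM in control ALPs (-2.62 ± 0.46, adjusted p = 0.792). Ly86, of the myeloid list, which encodes MD-1, a partner of the receptor RP105, was at 33.7 and 55.8 CPM in null ALPs and 229 and 393 CPM in control ALPs (-2.80 ± 0.76, adjusted p = 1). In each of these 3 genes, named for their link to Irf8 over cells or libraries or for their p, the null mice lay below the control mice. The same was true of 17% of all genes, and none of the 3 passed the test. MHC class II genes of the dendritic list went the other way. Cd74, which encodes the invariant chain, was at 77.4 and 118 CPM in null ALPs and 26.4 and 18.7 CPM in control ALPs (2.11 ± 0.47, adjusted p = 1). H2-Ab1 was at 101 to 133 CPM in null ALPs and 34.0 to 53.4 CPM in control ALPs (1.42 ± 0.50, adjusted p = 1), H2-Aa at 36.5 to 67.0 CPM in null ALPs and 2.24 to 4.94 CPM in control ALPs, and H2-Eb1 at 16.0 to 17.0 CPM in null ALPs and 4.48 to 6.67 CPM in control ALPs. Of 21 dendritic genes tested, 6 were higher and 15 lower in null ALPs, with a median log2 difference of -0.44 beside 0 for all genes.

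Ebf1 was the only gene of 19903 to pass in ALPs. It rose to 154 and 217 CPM in null ALPs, against 24.7 and 19.9 CPM in control ALPs (3.05 ± 0.26, edgeR adjusted p = 0.026). The call of Ebf1 ended when any 1 mouse was left out, with 0 genes called. Of 25 early B genes, 16 were higher and 9 lower in null ALPs, with a median of 1.26, and among the lower ones Ablim1 was at 0.514 and 0.815 CPM in null ALPs and 57.7 and 41.8 CPM in control ALPs (-6.23 ± 0.73, adjusted p = 0.174). Pax5 was at 30.9 and 28.0 CPM in null ALPs and 0.267 and 1.51 CPM in control ALPs, which did not pass (5.06 ± 0.81, adjusted p = 0.614). Of 19 myeloid genes, 13 were higher and 6 lower, with a median of 0.87, and in LMPPs 4 were higher and 15 lower, with a median of -0.60. The 4 higher in LMPPs included Mpo (1.34 ± 0.45, edgeR adjusted p = 0.699) and Ctsg (3.05 ± 1.28, adjusted p = 0.736). Summed over the 19 genes, levels were 1632 to 2353 CPM in null LMPPs and 1492 to 1662 CPM in control LMPPs, which overlap. Mpo was at 847 and 729 CPM in null ALPs and 421 and 182 CPM in control ALPs (1.38 ± 0.45, adjusted p = 1). Of 8 T lineage genes 6 were lower in null ALPs (median -1.16), and of 6 NK and innate lymphoid genes 5 were lower (median -2.11), with 0 called. The part of these other lineages in the Irf8 difference was not tested.

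Over the 12 libraries the genes whose levels went most closely with Irf8, among 7453 with a mean of at least 20 CPM, were Ly86 (Pearson r = 0.96 on the log2 scale), Klrd1 (0.95), Siglech (0.94), Clec2d (0.93) and Nucb2 (0.92). These libraries share mice and gates, so the values describe likeness over 12 points and carry no test.

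Irf4 was rare. It lies on the plus strand of chromosome 13 (30749226 to 30766976, 4903 exonic bases) and had 3985 reads in all, against 646487 for Irf8. A read was seen in 81 of 561 cells, 10 reads or more in 12 of 284 null cells and 15 of 277 control cells, and 10 cells held 71.1% of the reads. In LMPPs, 4 reads were found in null cells and 972 in control cells, which gives a ratio of 0.00731 (null over control, exact 95% interval 0.00199 to 0.0188 for counting error alone). Reads came from 4 of 92 null LMPPs, with 1 read in each, and from 12 of 94 control LMPPs, of which 4 had 10 reads or more and 1 had 508. So the LMPP difference rests on 4 control cells. At 50000 counts per cell, a read was seen in 0 of 92 null LMPPs and in 4.26% of the LMPPs of each control mouse.

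Irf4 in LMPPs was at 0.0269 and 0.0344 CPM in null mice and at 3.01 and 4.97 CPM in control mice. In ALPs it stood at 3.33 and 7.08 CPM in null mice and 3.19 and 1.88 CPM in control mice. BLPs had 7.37 and 14.0 CPM in null mice and 5.67 and 0.878 CPM in control mice. The null mice thus lay below the control mice in LMPPs and above them in ALPs and BLPs. Without the cell with most reads in each library, the BLP levels were 1.85 and 5.74 CPM in null mice and 2.68 and 0.647 CPM in control mice, which overlap, and the ALP levels were 1.40 and 1.59 CPM against 1.51 and 0.336 CPM, which overlap as well. The edgeR log2 differences were -6.96 ± 1.29 in LMPPs (adjusted p = 0.435), 1.04 ± 0.98 in ALPs (adjusted p = 1) and 1.70 ± 1.00 in BLPs (adjusted p = 0.635), and the first depends on the prior count because the null libraries hold 2 reads each. ALPs over LMPPs, Irf4 differed by 7.35 ± 1.31 in null mice (adjusted p = 0.0899) and by -0.65 ± 0.98 in control mice (adjusted p = 0.931), with an interaction of 8.00 ± 1.58 (unadjusted p = 0.000795, adjusted p = 0.899). BLPs over ALPs, it differed by 1.04 ± 0.98 in null mice (adjusted p = 0.901) and by 0.37 ± 0.98 in control mice (adjusted p = 0.969).

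Genes whose library levels were most like Irf4 were Cnot9 (r = 0.90), Kansl1l (0.88), Srpk2 (0.87), Xpo4 (0.87) and Syncrip (0.86), over 12 libraries of which most of the Irf4 reads come from a few cells. Prdm1, the plasma cell factor that acts with IRF4 in mature B cells, was at 1.41 CPM or less in every library. Of 9 mature B and plasma cell genes measured, 0 were called between genotypes in any gate, 7 of 9 were lower in null LMPPs, 8 of 9 in null ALPs and 7 of 9 in null BLPs. Of all 19903 genes, 9577, 9884 and 9644 were higher in null LMPPs, ALPs and BLPs. Some of the 9 had very few reads: Ms4a1 averaged 0.0377 CPM in null and 0.334 CPM in control BLPs, and Prdm1 0.188 and 0.0327 CPM. Ighm, the heavy chain gene, was the member of that list called between gates, at 1.16 ± 0.13 for ALPs over LMPPs in null mice (adjusted p = 0.0146) and 1.22 ± 0.13 in control mice (adjusted p = 0.0137).

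Bach2 was higher at each successive gate in all 4 mice. It lies on the plus strand of chromosome 4 (32238804 to 32586108, 9940 exonic bases), of which 537 exonic bases are shared with the antisense gene Bach2os. Bach2os had 686 reads beside 63455 of Bach2, and since the sources used here do not say whether the counting used strand, reads of the 2 genes cannot be told apart there. Its promoter is shown because Bach2 and Irf8 had levels that went together over the libraries. The window is the 250 bases before the RefSeq start (GRCm38.p6, chr4:32417185-32417434, plus strand), which lies inside the gene's annotated span. Capitals mark a match to TTCNNNGAA and, near the end, a minus-strand match to the letters of the ETS-IRF composite.
Bach2: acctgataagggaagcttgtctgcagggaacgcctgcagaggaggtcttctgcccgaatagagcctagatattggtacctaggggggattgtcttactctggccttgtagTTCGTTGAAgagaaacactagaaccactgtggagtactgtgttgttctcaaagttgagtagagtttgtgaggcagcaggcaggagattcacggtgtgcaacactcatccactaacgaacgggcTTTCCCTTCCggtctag
The matches start 140 and 17 bases before the start and do not overlap. Windows with the ETS-IRF letters made up 2.3% of all, and none of the letter sets was found in the windows of Irf4 and Bach1.

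In LMPPs, Bach2 was at 3.14 and 7.70 CPM in null mice and at 13.9 and 36.0 CPM in control mice. ALPs had 41.6 and 64.7 CPM in null mice and 60.3 and 110 CPM in control mice. In BLPs it was at 120 and 128 CPM in null mice and at 92.3 and 114 CPM in control mice. Null mice lay below control mice in LMPPs, overlapped them in ALPs and lay above them in BLPs. A single cell held 75.7% of the Bach2 reads in the LMPPs of control mouse 18220, and without the cell with most reads in each library the LMPP levels were 1.56 and 4.65 CPM in null mice and 8.01 and 9.24 CPM in control mice, still without overlap.

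The null-over-control log2 difference of Bach2 was -2.20 ± 0.58 in LMPPs (edgeR unadjusted p = 0.00476, adjusted p = 0.628), -0.68 ± 0.56 in ALPs (adjusted p = 1) and 0.26 ± 0.56 in BLPs (adjusted p = 0.952). ALPs over LMPPs, it was 3.29 ± 0.61 in null mice (unadjusted p = 0.000506, adjusted p = 0.104) and 1.77 ± 0.57 in control mice (adjusted p = 0.425). BLPs over ALPs, it was 1.22 ± 0.56 in null mice (adjusted p = 0.768) and 0.27 ± 0.56 in control mice (adjusted p = 0.954). The steps were not shown to differ between genotypes, with interactions of 1.52 ± 0.79 (adjusted p = 0.951) and 0.95 ± 0.79 (adjusted p = 0.922). With edgeR, none of the 4 members passed between gates: the share of all genes that did was 0.211% for ALPs over LMPPs in null mice, 0.271% in control mice, 0% for BLPs over ALPs in null mice and 0.00502% in control mice. Both interaction tests called 0% of genes. Unadjusted p-values under 0.05 were found for 1274 genes in BLPs over ALPs of null mice and for 1044 and 1269 genes in the interactions, where DESeq2 called 448, 239 and 351 genes and limma-voom 0, 0 and 1.

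The share of cells with Bach2 was also higher at each successive gate in every mouse. At 50000 counts per cell, LMPPs had a read in 11.1% and 19.1% of null cells and 17.0% and 19.1% of control cells. ALPs had one in 40.5% and 45.2% of null cells and in 50.0% of the cells of each control mouse, and BLPs in 52.8% and 54.3% of null cells and 58.8% and 62.9% of control cells. The share was higher in ALPs than in LMPPs by 29.8 ± 2.9 points and higher in BLPs than in ALPs by 10.7 ± 2.1 points, each in 4 of 4 mice (SD, exact permutation p = 0.125, the smallest that 4 pairs can give). In both ALPs and BLPs the null mice lay below the control mice, by 7.13 and 7.31 points (exact permutation p = 0.333 each, the smallest possible), but this did not hold at other depths. The null-minus-control difference was 1.27 points in ALPs and 1.67 points in BLPs at 20000 counts per cell, and -1.07 and -0.33 points at 100000 counts, with the mice overlapping in each case.

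Within BLP libraries, the correlations of Bach2 with Irf8 and with genes chosen for their link to Irf8 were mixed in sign. Whether Bach2 goes with a different set of genes over BLPs was not tested. In BLPs its correlation with Irf8 over cells was 0.18 and 0.01 in null mice and 0.03 and -0.30 in control mice. With Ebf1 it ranged from -0.15 to 0.25 over the 4 mice, with Rag1 from -0.11 to 0.18 and with Siglech from -0.24 to 0.12. In ALPs its values against the early B list of 25 genes were positive in all 4 mice, from 0.02 to 0.28. Over libraries, by contrast, Irf8 and Bach2 gave r = 0.90 (12 libraries, a description). The genes most like Bach2 over libraries were Klrb1f (0.96), Wasf2 (0.96), Ncor1 (0.96), Cdkn1a (0.95) and Tfrc (0.95). Tfrc encodes the transferrin receptor and Cdkn1a the cell cycle inhibitor p21.

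Bach1 lay between 6.27 and 28.4 CPM in all 12 libraries. It lies on the plus strand of chromosome 16 (87698945 to 87733346, 6179 exonic bases). In LMPPs it was at 11.2 and 11.1 CPM in null mice and at 24.8 and 21.1 CPM in control mice. ALPs had 9.83 and 7.75 CPM in null mice and 12.3 and 12.7 CPM in control mice. In BLPs it was at 9.65 and 28.4 CPM in null mice and at 18.7 and 6.27 CPM in control mice. Null mice lay below control mice in LMPPs and ALPs and overlapped them in BLPs. No difference passed: the null-over-control log2 values were -1.05 ± 0.68 in LMPPs (edgeR adjusted p = 0.77), -0.51 ± 0.67 in ALPs (adjusted p = 1) and 0.61 ± 0.67 in BLPs (adjusted p = 0.854).

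For ALPs over LMPPs, Bach1 differed by -0.34 ± 0.67 in null mice and -0.88 ± 0.68 in control mice, and for BLPs over ALPs by 1.11 ± 0.68 in null mice and 0.00 ± 0.67 in control mice (edgeR adjusted p from 0.776 to 1). Its share of cells with a read lay between 11.4% and 26.5% in all 12 libraries. Genes most like it over libraries were Ubxn1 (r = 0.92), Cnppd1 (0.87), Tmem258 (0.87), Tep1 (0.87) and Atf1 (0.86), and its correlation with Bach2 was -0.04.

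**Figure D5:**
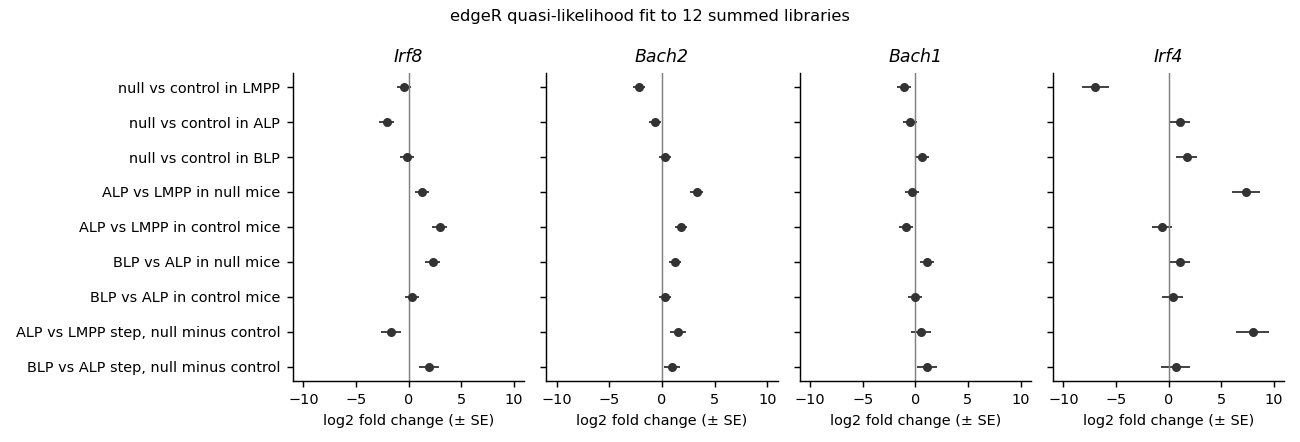
Log2 fold change ± SE of Irf8, Bach2, Bach1 and Irf4 in the 9 comparisons of the edgeR fit to 12 summed libraries. No point passed the threshold, and the points farthest from 0 are those of Irf4 in comparisons with null LMPPs (-6.96, 7.35 and 8.00), where the null libraries hold 2 reads each.

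Set per kilobase of exon, so that the genes can be compared with each other, Irf8 was highest in all 12 libraries, at 4.29 to 227 CPM per kb. Bach1 followed in 3 of 4 LMPP libraries, and Bach2 was second in the other LMPP library and in all 8 ALP and BLP libraries. That LMPP library is of control mouse 18220, where 1 cell held 75.7% of the Bach2 reads. Without that cell Bach2 lay below Bach1 there as well. Irf4 was lowest in 11 of 12 libraries, at 0.00549 to 2.85 CPM per kb, and in the ALPs of null mouse 18219 Bach1 stood below it. This exception hangs on 1 cell: without the cell richest in Irf4, Irf4 lay below Bach1 in that library too. Bach2 ranged from 0.316 to 12.8 and Bach1 from 1.02 to 4.59 CPM per kb. In LMPPs, Bach2 averaged 0.545 ± 0.325 and Bach1 1.80 ± 0.00835 CPM per kb in null mice, against 2.51 ± 1.57 and 3.72 ± 0.428 CPM per kb in control mice (SD, n = 2), so the neighbours Bach1 and Bach2 do not differ beyond their spread in control LMPPs. The mean and spread of Bach2 in control LMPPs depend on the single cell of mouse 18220.

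The mice did not overlap for Irf4, Bach1 and Bach2 in LMPPs (all lower in null mice), as for 17.8% of all genes in that direction. In ALPs, Irf8 and Bach1 were lower without overlap (17% of genes) and Irf4 higher (17.1%), and in BLPs Irf4 and Bach2 were higher (16.3%) and none lower (17.1%). In LMPPs none was higher (16.2% of genes). For ALPs over LMPPs, Irf4 and Bach2 were higher without overlap in null mice (19.8%) and Irf8 and Bach2 in control mice (20%), and Bach1 was lower in both genotypes (18.1% in null and 19.9% in control mice). For BLPs over ALPs, Irf4, Irf8 and Bach2 were higher without overlap in null mice (16%) and none lower (19.1%). In control mice no member was higher (16.9%) or lower (19.8%) without overlap. Shares this large among all genes show how often 2 mice separate from 2 others.

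Other tests called some of the members. DESeq2, which called far more genes of all kinds, called Irf4 and Bach2 lower in null LMPPs (adjusted p = 1.98e-06 and 0.0114, with 2.61% of genes called). It called Irf4 and Bach2 higher in ALPs than LMPPs of null mice (9.6e-08 and 1.92e-06, 5.27% of genes), Irf8 and Bach2 in control mice (0.000607 and 0.0379, 5.23%), Irf8 higher in BLPs than ALPs of null mice (0.0296, 2.6%), and the Irf4 interaction at the ALP step (9.09e-05, 1.3%). With all cells thinned before summing, edgeR called Bach2 higher in ALPs than LMPPs of null mice (adjusted p = 0.0115, 1.62% of genes) and Irf8 in control mice (0.0109, 1.12%). With every cell given the same weight, limma called Bach2 in that step in null mice (0.0136, 1.38%) and in control mice (0.0458, 0.881%). Bach2 in null mice, the step into the ALP gate, was called in 5 of the 16 alternatives run on it.

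Among the partners of IRF factors, Spi1 (PU.1) was abundant in every library (143 to 390 CPM) and Spib (SpiB) was not. Spib was at 0.0285 and 0.0479 CPM in null ALPs and 3.05 and 0.0692 CPM in control ALPs, and at 16.9 and 21.1 CPM in null BLPs and 4.29 and 25.0 CPM in control BLPs. Batf was at 10.5 and 11.2 CPM in null BLPs, against 32.4 and 33.9 CPM in control BLPs (-1.61 ± 0.28, edgeR adjusted p = 0.287), and it lay lower in null than in control mice in all 3 gates. Of all genes, 17.8% in LMPPs, 17% in ALPs and 17.1% in BLPs were lower in null mice without overlap. Of 10 partners tested, 0 were called in any of the 9 comparisons. The other IRF genes gave 0 calls of 7 as well, with all 7 lower in null LMPPs (median -0.50, beside -0.02 for all genes) and Irf9, a factor of the interferon response, at -1.35 ± 0.27 (adjusted p = 0.504).

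Among the partners and rivals of BACH factors, 1 gene of 8 was called. Nfe2, which encodes the p45 subunit that also pairs with small MAF proteins, was at 62.3 and 109 CPM in null ALPs against 309 and 388 CPM in null LMPPs, which did not pass (-2.03 ± 0.33, edgeR adjusted p = 0.0683). It fell to 72.0 and 108 CPM in control ALPs, against 410 and 445 CPM in control LMPPs (-2.24 ± 0.33, adjusted p = 0.0412). Of 12 heme and oxidative defence genes tested, known or likely BACH targets, 11 were lower in ALPs than LMPPs in null mice (median -1.07) and 12 in control mice (median -0.73), beside medians of 0.00 and 0 over all genes, and 0 were called. Gclm, a subunit of the enzyme that starts glutathione synthesis, was at 20.0 and 43.8 CPM in null ALPs against 93.8 and 135 CPM in null LMPPs (-1.84 ± 0.50, adjusted p = 0.29), and at 20.0 and 37.8 CPM in control ALPs against 93.5 and 76.1 CPM in control LMPPs (-1.55 ± 0.49, adjusted p = 0.418). Hmox1, the heme oxygenase gene repressed by BACH1, stood at 2.86 and 1.81 CPM in null ALPs and 10.8 and 5.69 CPM in control ALPs. That difference did not pass (-1.82 ± 2.11, edgeR unadjusted p = 0.414), and 17% of all genes were lower in null ALPs without overlap. Between genotypes, 8 of the 12 were lower in null LMPPs, 9 in null ALPs and 8 in null BLPs, with 0 called, and the 7 heme synthesis genes had 0 calls in any comparison.

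Lineage genes that passed the test between gates give the frame for these levels. For ALPs over LMPPs, 7 of 25 early B genes rose in null mice (Ebf1, Il7r, Rag1, Blnk, Pax5, Dntt and Ly6d) and 6 in control mice (the same without Pax5), and 0 fell in either. Il7r and Ly6d encode proteins used for the gates. Cox6a2 rose in ALPs over LMPPs in null mice (3.97 ± 0.52, edgeR adjusted p = 0.025) and in control mice (6.79 ± 0.59, adjusted p = 0.00376), and Pld4 in control mice (3.77 ± 0.49, adjusted p = 0.0216), out of 21 dendritic genes. Hes1, a Notch target, rose in control mice (5.84 ± 0.78, adjusted p = 0.0247), the 1 call among 8 T lineage genes. For BLPs over ALPs, Ebf1 alone rose, in control mice (3.47 ± 0.26, adjusted p = 0.0107). In null BLPs, Ablim1, an actin-binding gene on the early B list, fell to 0.3 and 0.36 CPM, against 67.2 and 133 CPM in control BLPs (-8.24 ± 0.80, adjusted p = 0.0405). With any 1 mouse left out, 0 genes were called in null over control BLPs and in BLPs over ALPs of control mice, and 0 to 7 in ALPs over LMPPs of either genotype. Of 19 myeloid, 6 NK and innate lymphoid, 8 erythroid and megakaryocyte and 5 macrophage and stroma genes tested, 0 were called in any of the 9 comparisons.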

How the data were processed

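The authors deposited whole-number read counts per gene and cell, made with GSNAP 2015-09-29 and HTSeq 0.5.3p3 on mm10, per the submitters' processing notes; libraries followed the protocol of Picelli and colleagues, per the labels' protocols. Genes took 43.2% of all entries, spike-ins 6.13% and the 5 HTSeq summary rows, which name no gene, 50.7%; the last 2 stayed out of library sizes and tests. The sources used here do not give the annotation release or the strand setting. Molecules were not barcoded. Counts are therefore of reads, and intervals and limits cover counting error only. Of the gene IDs, 45229 had a symbol in GENCODE vM21 (GRCm38, the assembly of mm10). Promoters are from RefSeq (GRCm38.p6): all 4 members matched.

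Cells were grouped by title. Filters of 50000 nuclear gene counts and 1000 nuclear genes as minimums, and of 20% mitochondrial and 50% spike-in counts as maximums, left 561 cells and removed 111. No doublet caller was run, since cells were sorted 1 per well, and no 2 cells had identical counts. Counts were summed per mouse and gate (12 libraries), filtered with filterByExpr (19903 genes) and normalized by TMM. The test was edgeR's quasi-likelihood one (version 4.0.16 under R 4.3.3, glmQLFit and glmQLFTest). All 6 groups shared a fit, which had 6 residual degrees of freedom and a common biological coefficient of variation of 86.9%. Adjusted p-values are Benjamini-Hochberg over all genes, with a threshold of 0.05. Each SE is the size of the log2 change over the root of its F statistic. The test was tried on simulated data. Alternatives were DESeq2 1.42.0, limma 3.58.1 (voom, or log2 of the mean CPM over cells plus 1), other scaling, filters and cells, left-out mice or libraries, and blocks.

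The members, gene lists and tests were chosen with earlier results of these data known. Named genes were the 4 members, the 5 genes most like each over 12 libraries (mean of at least 20 CPM, log2 of CPM plus 1), list genes past the threshold or with up to the 4 smallest p, and gate genes. Genes ranked by correlation with Irf8 over BLPs, and those paired with it there, were chosen after their values were seen. Every mouse gave all 3 gates, so the mouse number pairs the gate comparisons; deviations from group means correlated by 0.0341 to 0.0694 between libraries of 1 mouse. The values of 1 gene of the IRF partner list are not reported here.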

Additional observations from a re-analysis of the deposited data

How the results depend on the processing

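Of 556 values of the members under the alternatives, 517 kept their direction and side of the threshold, 15 newly passed it, 0 lost a call and 24 changed sign. The newly passed values, as log2 differences, were with DESeq2 -7.01 (Irf4) and -2.18 (Bach2) in null over control LMPPs, 7.41 (Irf4) and 3.29 (Bach2) in ALPs over LMPPs of null mice, 2.97 (Irf8) and 1.80 (Bach2) in control mice, 2.30 (Irf8) in BLPs over ALPs of null mice and 8.05 for the Irf4 interaction at the ALP step. In ALPs over LMPPs, no filter on low counts gave 3.31 (Bach2, null; adjusted p = 0.00166, 0.475% of genes called) and 2.94 (Irf8, control; 0.00194, 0.515%), thinning before summing gave 2.59 (Bach2, null) and 3.15 (Irf8, control), and limma on mean CPM gave 2.73 and 2.12 (Bach2, null and control). A block for the order of the columns in the table, chosen after seeing the data, gave 3.37 (Bach2, null; 0.0295, 0.181%). Irf8 in null over control BLPs was 0.10 with thinning and 0.0944 with mean CPM, Bach2 there -0.14 and -0.0437, and Bach1 there -0.0618 with mean CPM. In BLPs over ALPs of control mice, Irf4 was -0.25 with limma-voom, -0.60 with thinning and -0.14 with mean CPM, and Bach1 was 0.00768 with DESeq2, 0.00788 with its size factors in edgeR, 0.0391 with all cells, 0.00364 with cells of at least 200000 counts and 0.0237 with the ALPs of mice 18219 and 18220 left out. The Bach1 interaction at the ALP step was -0.37 with thinning and -0.13 with mean CPM. Leaving out each mouse in turn, sign changes occurred for Irf8 in null over control LMPPs (-2.17 to 0.31; above 0 without null mouse 18217) and BLPs (-0.45 to 0.18), Bach1 in null over control BLPs (-0.38 to 1.59), Irf4 in control ALPs over LMPPs (-1.41 to 0.0613) and BLPs over ALPs (-1.09 to 0.84), Bach1 in BLPs over ALPs of null mice (-0.0331 to 1.88) and control mice (-1.01 to 0.62), and the Bach1 interaction at the BLP step (-0.0309 to 2.13). The cause of these changes was not tested.

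Counts of all genes called depended on the tool. With edgeR they were 0, 1 and 2 for null over control LMPPs, ALPs and BLPs, 42 and 54 for ALPs over LMPPs in null and control mice, 0 and 1 for BLPs over ALPs in null and control mice, and 0 and 0 for the interactions. In the same order DESeq2 called 489, 276, 800, 926, 920, 448, 595, 239 and 351, no filter gave 8, 6, 11, 165, 179, 10, 34, 3 and 1, and limma on mean CPM gave 22, 12, 6, 274, 175, 17, 18, 5 and 2. Limma-voom called 0 in ALPs, 0 in BLPs, 27 and 96 for ALPs over LMPPs in null and control mice, 2 for BLPs over ALPs in control mice and 1 for the interaction at the BLP step. Thinning gave 0 in null over control BLPs, 212 and 147 for ALPs over LMPPs in null and control mice, and 3 and 13 for BLPs over ALPs. Keeping all cells gave 1 in null over control BLPs. With the ALPs of mice 18219 and 18220 left out the counts were 0 in ALPs, 0 in BLPs, 7 and 5 for ALPs over LMPPs in null and control mice and 0 for BLPs over ALPs in control mice, and with only the 2 groups compared they were 0, 0, 1, 0 and 0. Leaving out 1 mouse gave 0 to 0 in ALPs, in BLPs and in BLPs over ALPs of control mice, and 0 to 7 for ALPs over LMPPs in null and in control mice. With fewer libraries the fit has fewer residual degrees of freedom.

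With the mouse as a replicate block, the counts for ALPs over LMPPs were 22 in null and 32 in control mice, and no member changed its call: Bach2 in that step was 3.36 in null mice (adjusted p = 0.0709) and 1.84 in control mice (0.259), and Irf8 2.89 in control mice (0.278). The column-order block gave 0 genes in null over control ALPs and 0 in BLPs.

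Shares of cells with a read moved with depth. In percentage points (null minus control), Irf4 in LMPPs was -8.42 without thinning, and Irf4 in BLPs was -3.14 at 100000 counts per cell and -9.23 without thinning, against 2.65 at 50000. Irf8 in ALPs was -10.0 at 100000 counts and -1.82 without thinning. Bach1 in ALPs was -2.58 at 100000 and -6.56 without thinning. Bach2 in LMPPs was -10.5 at 20000, -11.5 at 100000, -18.0 without thinning and -9.34 with at least 10 reads, and in ALPs -1.07 at 100000 and 5.63 without thinning. Thinning draws reads at random, so shares of genes with few reads per cell vary with the draw. The mean correlation of Irf8 with Ebf1 over BLPs was -0.43 without thinning, chosen after seeing the data, against -0.37. The number of mice (2 a group), cells lost from 2 ALP libraries and single cells that hold most reads of Irf4, Irf8, Bach1 or Bach2 in some libraries limit every value here.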
